A study of Homo sapiens with 12 samples.

Results

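The immunoglobulin-type cell adhesion molecules examined here are 10 genes: ICAM1, VCAM1, ALCAM, L1CAM, CADM1, MCAM, BCAM, NCAM1, PVR and PVRL2. They were taken by exact gene symbol from a table of 60234 genes, and each symbol matched 1 row. RNA sequencing had been carried out on cultures of the human breast cancer line MDA-MB-231, which is of the triple-negative class, in 2 populations: fast cells, which the labels describe as captured by their trajectory, and parental cells, the uncaptured line. Each population was represented by 3 libraries in batch 1 and 3 libraries in batch 2, 12 libraries in all. The comparison addressed is how the adhesion repertoire of the captured fast cells differed from that of the line they came from. No genetic change or drug is named for either population, and the labels do not say how many cells founded the fast population or whether it is a clone. The series calls the 3 libraries of a group technical replicates, so that p-values measure only the spread between these libraries, which may be technical. Because the RNA came from bulk cultures, fewer cells that express a gene and less RNA per cell cannot be told apart.

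Proteins of this family carry immunoglobulin folds outside the cell, usually a single membrane span and a short cytoplasmic tail. ICAM1 and VCAM1 are the integrin ligands that leukocytes grip on inflamed endothelium, and NF-kB and cytokines are known to induce both. L1CAM and NCAM1 were first studied as neural adhesion molecules, and L1CAM is also known for its presence at the invasive front of several carcinomas. ALCAM (CD166) binds itself and CD6, MCAM (CD146) is a melanoma and endothelial molecule, BCAM is a laminin receptor, and CADM1, PVR (CD155) and PVRL2 (nectin-2) belong to the nectin and nectin-like group, of which PVR and PVRL2 are also ligands of lymphocyte receptors.

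Library totals ran from 53267145 to 75944907 counts, so a gene at 1 CPM (counts scaled to a common library total, here TMM-normalised) had about 53.3 counts in the shallowest library. An adjusted p under 0.05 from edgeR's quasi-likelihood test, with Benjamini-Hochberg adjustment over the 22668 genes that passed the low-count filter, is called a change. In this data set most genes changed: 63.4% of the genes tested were called over both batches, 31.9% higher and 31.5% lower in fast cells. Among the 10 adhesion molecules 7 passed the filter; VCAM1, CADM1 and NCAM1 did not. Of the 7, L1CAM, BCAM, MCAM and PVRL2 rose, PVR and ALCAM fell, and ICAM1 was not called. Within batch 1, where 29% of all genes were called higher and 27.1% lower (56.1% in all), 5 members rose and 2 fell. Within batch 2, where 27.4% were called higher and 28.6% lower (56% in all), 3 members rose and 1 fell. The members called with the same sign in each batch were L1CAM, BCAM and MCAM, higher, and PVR, lower, as were 46% of all genes (23% in each direction). Every fast library lay above every parental library for L1CAM, BCAM and MCAM, as in 18.8% of all genes tested, and below every parental library for PVR, as in 19.6% (38.4% in all). The change differed between the batches for 3 members: the log2 change was higher in batch 2 for L1CAM, as in 1.75% of all genes, and lower in batch 2 for ICAM1 and PVRL2, as in 3.65%. With so large a share of all genes called, nothing is read from the count of 6 called among 7, and the sizes are given gene by gene.

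Per length of exon, the line's most abundant member was ALCAM, at 66.4 ± 1.69 CPM per kb in fast cells and 70.3 ± 3.26 in parental cells (SD, n = 6). PVR followed, with 32.7 ± 1.94 CPM per kb in fast and 36.7 ± 0.498 in parental cells. PVRL2 came next, at 28.9 ± 1.80 and 26.7 ± 0.355 CPM per kb. These 3 places were separated without overlap in both populations. The length used was that of all annotated exons of a gene merged, and the order of genes under other transcript lengths was not examined. By this length, the places below them changed hands. In parental cells MCAM (7.64 ± 0.225 CPM per kb) lay above L1CAM (5.16 ± 1.02) in all 6 libraries and their ranges did not overlap, whereas in fast cells L1CAM (11.8 ± 1.38) lay above MCAM (10.4 ± 0.265) in 5 of 6 libraries with overlapping ranges. The ratio of L1CAM to MCAM per length was 1.21 to 1.30 in the fast libraries of batch 1 and 0.959 to 1.08 in those of batch 2. It was 0.756 to 0.814 in the parental libraries of batch 1 and 0.541 to 0.602 in those of batch 2. BCAM (4.19 ± 0.372 in fast, 2.89 ± 0.335 in parental cells, CPM per kb) and ICAM1 (2.73 ± 0.662 and 2.37 ± 0.229) came last, and these neighbours overlapped in parental cells and not in fast cells.

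Added up per length, the 10 genes gave 157 ± 6.40 CPM per kb in fast cells and 152 ± 4.52 in parental cells (SD, n = 6), with ranges of 149.5 to 165 and 146 to 159.9 that overlap. The makeup of that sum differed more than its size. L1CAM supplied 7.51 ± 0.595% of it in fast cells and 3.39 ± 0.602% in parental cells. MCAM supplied 6.63 ± 0.333% and 5.03 ± 0.113%, and BCAM 2.66 ± 0.149% and 1.90 ± 0.216%. ALCAM supplied 42.3 ± 1.59% in fast and 46.3 ± 1.005% in parental cells, and PVR 20.8 ± 0.645% and 24.2 ± 0.436%. In each of these 5 genes the shares of the 6 fast and 6 parental libraries did not overlap. The shares of PVRL2 (17.7 to 18.9% in fast, 16.5 to 18.1% in parental cells) and ICAM1 (1.18 to 2.07% and 1.44 to 1.74%) did. All are parts of the same sum, so a higher share of some genes lowers the shares of others. The level of ALCAM itself overlapped between the populations. By level, 38.4% of all genes tested did not overlap, and shares were not computed for other genes.

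**Figure D1:**
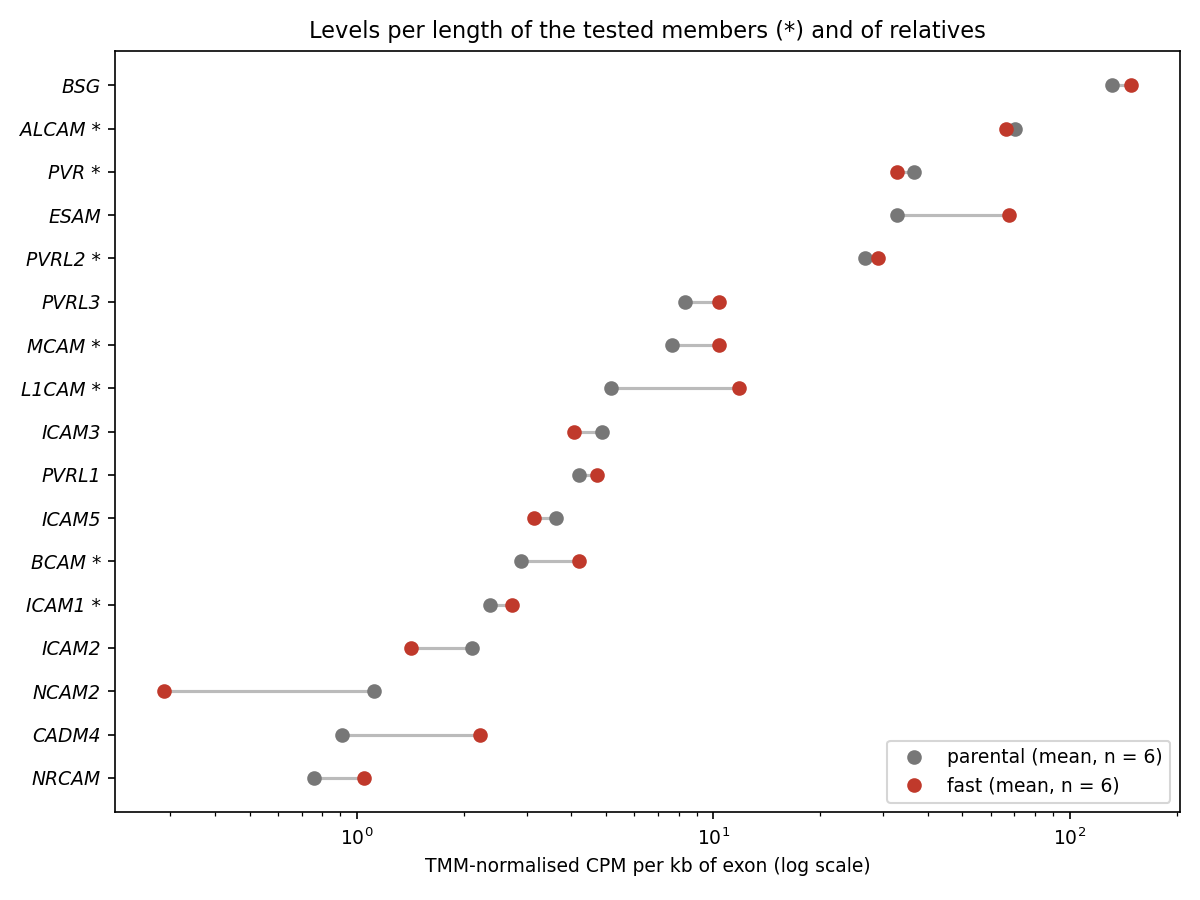
Mean TMM-normalised CPM per kb of exon (log axis) in 6 parental (grey) and 6 fast libraries (red) for the 7 tested members, marked with an asterisk, and 10 relatives; a line joins the means of a gene. By this measure, L1CAM moves from 5.16 to 11.8 and passes MCAM, while ALCAM, PVR and PVRL2 keep the highest places among the members.

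Of the 10 members, L1CAM, MCAM and BCAM, on 3 chromosomes, were called higher in both batches, as were 23% of all genes. For each of the 3 the first RefSeq transcription start listed (GRCh38.p14) was taken, and its use in these cells was not tested. The stretches of 250 bases before these starts are shown. They are written 5′ to 3′ on the gene's strand, with capitals for each match to the GC box GGGCGG on either strand (CCGCCC on the strand printed), the core bound by Sp1-type factors.
L1CAM, chrX:153875945-153876194 (minus strand): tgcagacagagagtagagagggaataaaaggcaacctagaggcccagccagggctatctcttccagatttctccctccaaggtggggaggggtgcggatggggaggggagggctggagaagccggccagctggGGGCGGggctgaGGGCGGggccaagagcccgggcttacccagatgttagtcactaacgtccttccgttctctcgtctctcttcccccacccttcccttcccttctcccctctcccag
MCAM, chr11:119317131-119317380 (minus strand): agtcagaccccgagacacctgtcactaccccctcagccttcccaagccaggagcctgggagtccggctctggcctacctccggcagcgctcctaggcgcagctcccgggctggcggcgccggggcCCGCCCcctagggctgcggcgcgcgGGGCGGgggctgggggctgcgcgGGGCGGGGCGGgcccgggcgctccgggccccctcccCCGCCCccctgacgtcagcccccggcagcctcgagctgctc
BCAM, chr19:44808809-44809058 (plus strand): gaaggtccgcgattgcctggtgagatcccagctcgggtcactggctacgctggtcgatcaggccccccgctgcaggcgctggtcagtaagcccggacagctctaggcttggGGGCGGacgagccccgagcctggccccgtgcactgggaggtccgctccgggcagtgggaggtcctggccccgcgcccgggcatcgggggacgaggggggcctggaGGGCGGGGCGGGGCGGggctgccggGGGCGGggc
The L1CAM stretch held 2 GC boxes, MCAM 5 and BCAM 5, counted with overlaps, and none of the 3 held TATAAA on either strand. A GC box stood in 42.6% of the 35116 promoter stretches of this length and TATAAA in 10.7%. L1CAM held 8 CpG dinucleotides, MCAM 26 and BCAM 24, beside a median of 11 over all stretches. These features were not particular to the 3 genes. GC boxes also stood in ALCAM, which fell, and in PVRL2, though not in PVR. ALCAM, PVR and PVRL2 held no TATAAA either, and they had 20, 27 and 19 CpG dinucleotides. Such matches describe the letters only.

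L1CAM, which signals through ankyrins and ERM proteins and is cut from the surface by ADAM proteases, had the largest change of the members. Its level was 94.6, 96.8 and 93.6 CPM in the fast libraries of batch 1 and 46.3, 43.1 and 43.0 in the parental ones. In batch 2 it was 78.9, 78.2 and 74.1 CPM in fast and 32.0, 29.3 and 31.4 in parental libraries. Every fast library lay above every parental library, and batch 1 lay above batch 2 in both populations. The rise was 2.31-fold over both batches (log2 fold change 1.21 ± 0.04 SE, edgeR adjusted p = 3.24e-24). It was 2.15-fold in batch 1 (log2 1.11 ± 0.04) and 2.49-fold in batch 2 (log2 1.32 ± 0.04). The difference between the batches, 0.21 ± 0.06 on the log2 scale, passed the test (adjusted p = 0.0266), which 5.4% of all genes did. That last call was lost without replicate 1 or 3 of fast cells in batch 1, replicate 1 of parental cells in batch 1 or replicate 2 of parental cells in batch 2, with adjusted p up to 0.118.

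BCAM, the Lutheran antigen that binds the laminin alpha-5 chain, rose 1.45-fold (log2 0.54 ± 0.05, adjusted p = 1.43e-11). Fast libraries held 23.1, 20.9 and 23.4 CPM in batch 1 and 20.2, 19.5 and 18.9 in batch 2. Parental libraries held 14.8, 17.1 and 15.3 CPM in batch 1 and 13.5, 12.2 and 14.0 in batch 2. The lowest fast library was above the highest parental library. The changes within batches were alike in size, log2 0.51 ± 0.07 and 0.56 ± 0.07, and their difference did not pass the test (0.05 ± 0.10, adjusted p = 0.845).

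MCAM, an endothelial and melanoma adhesion molecule that binds laminin-411 and WNT5A among other ligands, rose 1.36-fold (log2 0.45 ± 0.03, adjusted p = 3.16e-15). Its fast libraries were narrow, at 75.8, 75.8 and 79.1 CPM in batch 1 and 74.8, 79.0 and 78.9 in batch 2. The parental libraries stood at 58.2, 58.2 and 58.0 CPM in batch 1 and 54.3, 55.3 and 56.2 in batch 2. No fast library came near a parental one, and the batches gave log2 changes of 0.40 ± 0.04 and 0.49 ± 0.04 (difference 0.09 ± 0.05, adjusted p = 0.443). MCAM shares 509 bases of exon with CBL on the opposite strand, a gene that was not called over both batches (log2 -0.05 ± 0.03, edgeR adjusted p = 0.224). CBL was not called in batch 1 (log2 0.04, adjusted p = 0.404) and was called lower in batch 2 (-0.13, adjusted p = 0.00291).

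**Figure D2:**
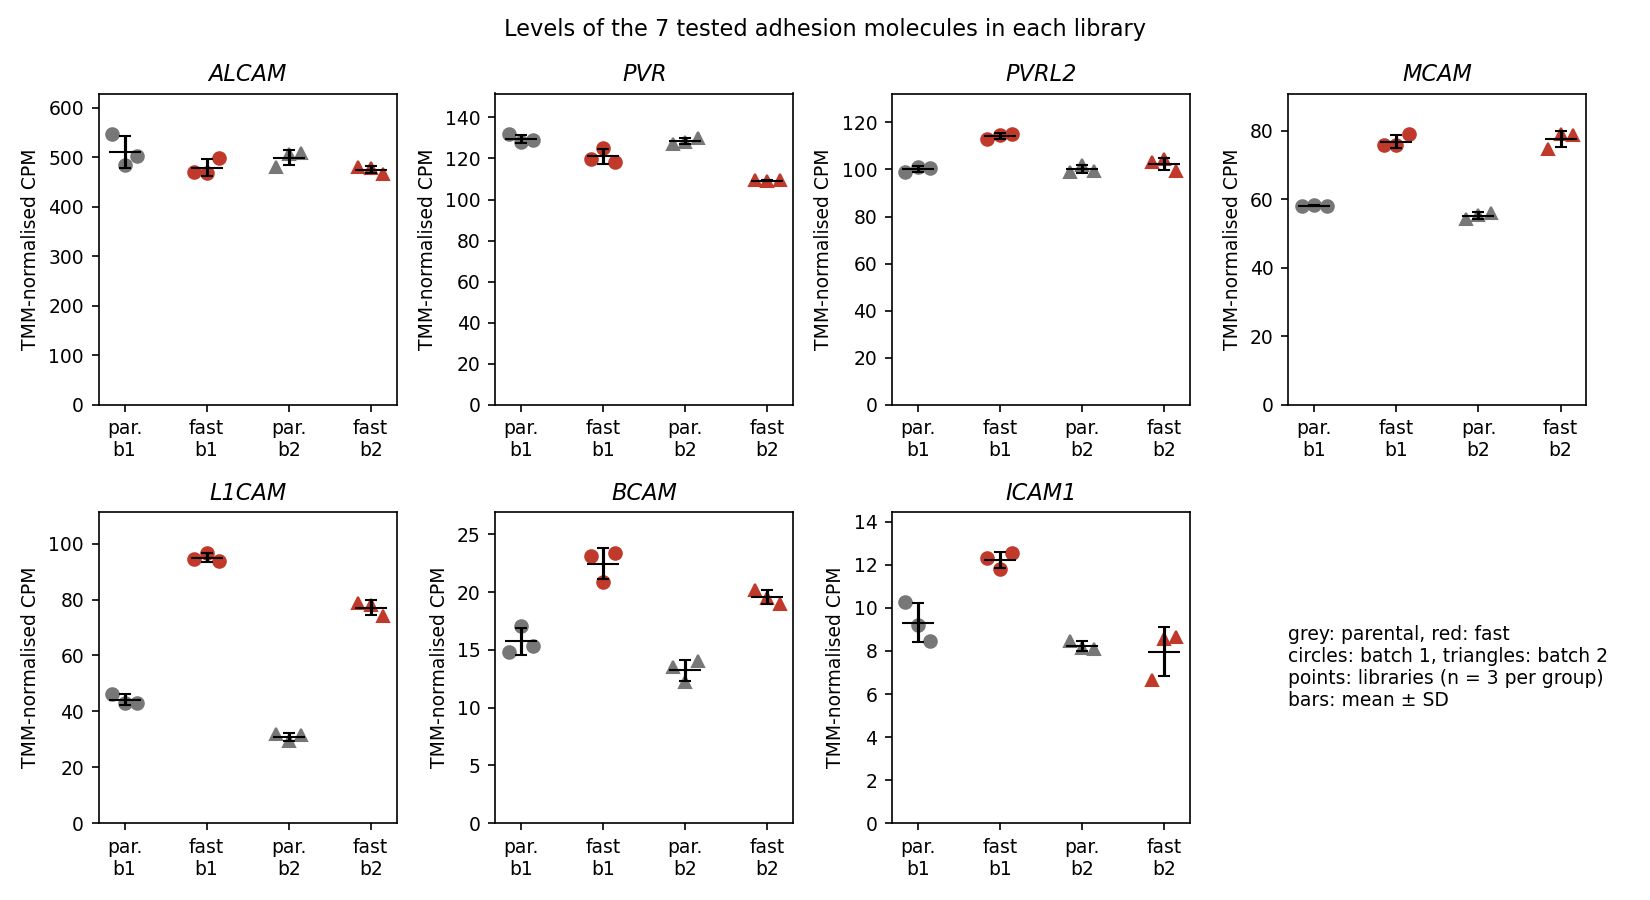
TMM-normalised CPM of the 7 tested members in each library (linear axes from 0), parental in grey and fast in red, batch 1 as circles and batch 2 as triangles, with mean ± SD (n = 3). L1CAM, BCAM and MCAM are higher in every fast library and PVR is lower in every fast library, whereas ALCAM, PVRL2 and ICAM1 overlap.

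PVR and PVRL2 are ligands of the lymphocyte receptors CD226 and TIGIT and also join in nectin-type cell contacts; they moved by small amounts in opposite directions. PVR measured 119.7, 125 and 118 CPM in the fast libraries of batch 1 and 109.5, 109 and 109 in those of batch 2. Its parental libraries measured 132, 128 and 129 CPM in batch 1 and 127, 128 and 130.2 in batch 2. All 6 fast libraries lay below all 6 parental libraries. PVR fell by 0.17 ± 0.03 on the log2 scale (adjusted p = 2.84e-06), a level 1.12-fold lower. The change was -0.10 ± 0.03 in batch 1 and -0.23 ± 0.03 in batch 2 (difference -0.13 ± 0.05, adjusted p = 0.088). The batch 1 call was lost without replicate 1 or 3 of the fast cells or replicate 1 of the parental cells of that batch, with adjusted p up to 0.088. PVR shares 121 bases of exon with CEACAM19 on its own strand, which fell by 0.61 on the log2 scale.

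PVRL2 had 113, 115 and 115 CPM in the fast and 98.8, 101 and 101 in the parental libraries of batch 1. In batch 2 it stood at 103, 104 and 99.4 CPM in fast and 98.8, 102 and 99.3 in parental libraries. The batch 1 groups were apart and the batch 2 groups overlapped. Over both batches PVRL2 was 1.08-fold higher (log2 0.11 ± 0.03, adjusted p = 0.00111), with 0.19 ± 0.03 in batch 1 (adjusted p = 5.42e-06) and 0.03 ± 0.03 in batch 2 (adjusted p = 0.416). The difference between batches, -0.16 ± 0.05, had an adjusted p of 0.0448 and missed the threshold in every one of 19 alternatives run on it (0.0581 to 0.487). The call over both batches was lost with scaling by library totals alone (adjusted p = 0.0509).

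ALCAM, the most abundant member, changed little. It measured 469.5, 468 and 499 CPM in the fast and 547, 485 and 502 in the parental libraries of batch 1, and 479, 479 and 467 in the fast and 481, 507 and 508 in the parental libraries of batch 2. The highest parental library was replicate 1 of batch 1, and over all 12 libraries the populations overlapped. ALCAM fell by 0.08 ± 0.03 on the log2 scale over both batches (adjusted p = 0.00888), a 1.06-fold lower level. That call was lost with the 3 libraries of each group summed (adjusted p = 0.240) and without replicate 1 or 2 of fast cells or replicate 1 of parental cells of batch 1 (0.0622 to 0.102).

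The change of ICAM1 depended on the batch. In batch 1 the fast libraries held 12.3, 11.8 and 12.6 CPM and the parental libraries 10.3, 9.21 and 8.46. In batch 2 the fast libraries held 6.67, 8.58 and 8.66 CPM and the parental libraries 8.48, 8.12 and 8.08. The fast libraries were thus all above the parental ones in batch 1 and lay around them in batch 2, with replicate 1 the lowest of all 12. ICAM1 rose 1.31-fold in batch 1 (log2 0.39 ± 0.09, adjusted p = 0.000193) and was not called in batch 2 (-0.05 ± 0.09, adjusted p = 0.688). The batches differed by -0.44 ± 0.13 (adjusted p = 0.0298), a call lost in 12 of 19 alternatives (adjusted p from 0.0133 to 0.252 over all 19). The call held without replicate 2 of fast or replicate 1 of parental cells of batch 1 or replicate 3 of fast cells of batch 2, and was lost without any other single library. Over both batches the change was 0.18 ± 0.08 (adjusted p = 0.0501), and it passed the threshold in 5 of 21 alternatives: with no low-count filter and without replicate 1 of fast cells or any 1 parental library of batch 2. ICAM1 shares 815 bases of exon with the antisense gene CTD-2369P2.8 (log2 0.10 ± 0.10, adjusted p = 0.438) and 61 bases with CTD-2369P2.5, which fell by 0.44 on the log2 scale (adjusted p = 1.57e-12); reads of such pairs cannot be told apart if counting did not use the strand.

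**Figure D3:**
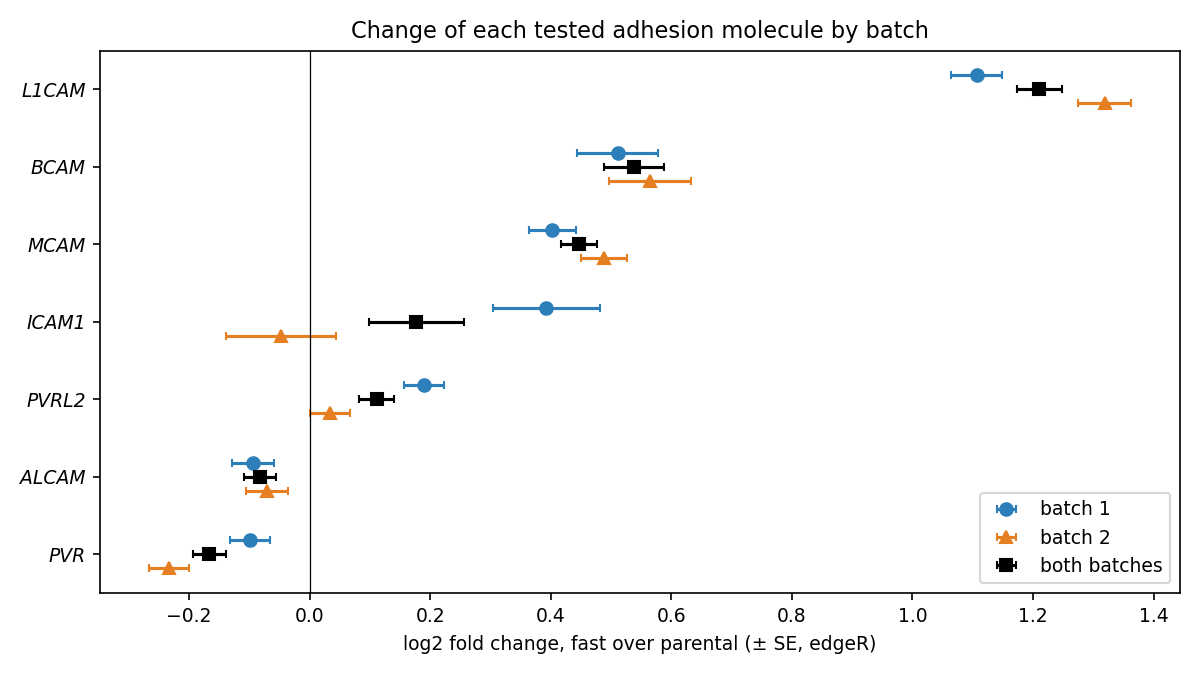
Log2 fold change of fast over parental cells (± SE, edgeR) for the 7 tested members in batch 1 (blue circles), batch 2 (orange triangles) and both batches (black squares). L1CAM, BCAM and MCAM lie to the right of 0 in each batch, and ICAM1 is at 0.39 in batch 1 and -0.05 in batch 2.

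VCAM1, CADM1 and NCAM1 were at the limit of detection at this depth. VCAM1 had 2 counts in replicate 1 of fast cells in batch 2, 2 counts in replicate 2 of parental cells in batch 1, and 0 in the other 10 libraries. NCAM1 had 0 counts in all 12 libraries, which allows up to 0.00382 CPM over the whole series (3 counts of the total, counting error only). CADM1, a nectin-like molecule known as a tumour suppressor in lung cancer, had 2 counts over the 6 fast libraries and 14 over the 6 parental libraries. The parental to fast ratio of CADM1 was 7.13 with an exact 95% interval of 1.64 to 64.7 from counting error. Genes with exactly 2 counts outnumbered genes with exactly 1 count by 1.79 to 2.80 times in the 12 libraries, and each CADM1 count was even. Taken in pairs, 7 against 1, the interval widened to 0.916 to 321, so a difference in CADM1 was not detectable at this depth.

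The VCAM1 and ICAM1 stretches before the RefSeq start (GRCh38.p14) are given because these are the classic NF-kB-induced members, one of them almost silent here and the other changed in a single batch. Capitals mark matches, on either strand, to GGNNNTTCC (an NF-kB-type site), to TATAAA and, in ICAM1, to the GC box.
ICAM1, chr19:10270870-10271119 (plus strand): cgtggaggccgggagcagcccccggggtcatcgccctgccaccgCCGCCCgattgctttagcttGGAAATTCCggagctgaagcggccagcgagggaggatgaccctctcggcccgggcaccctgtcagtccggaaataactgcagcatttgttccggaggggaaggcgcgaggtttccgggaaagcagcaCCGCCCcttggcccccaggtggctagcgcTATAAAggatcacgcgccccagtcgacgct
VCAM1, chr1:100719492-100719741 (plus strand): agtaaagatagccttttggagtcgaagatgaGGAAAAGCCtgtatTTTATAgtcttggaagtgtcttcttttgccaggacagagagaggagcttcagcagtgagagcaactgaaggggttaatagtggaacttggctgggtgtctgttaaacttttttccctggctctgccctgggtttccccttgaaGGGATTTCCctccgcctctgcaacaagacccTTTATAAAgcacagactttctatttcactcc
Positions are counted from the start, with -1 the last base before it. ICAM1 held GGAAATTCC at -186 to -178, where the letters match on both strands, a TATAAA at -30 to -25 and 2 GC boxes. VCAM1 held 2 NF-kB-type matches, GGGATTTCC at -62 to -54 and GGAAAAGCC at -219 to -211, and 3 TATAAA matches, 2 of which overlap. The other 6 members with an entry had no match to GGNNNTTCC in this window, which 17.1% of all stretches held. VCAM1 had 2 CpG dinucleotides and ICAM1 23.

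The genes nearest to each member on its chromosome were followed as a description of position. Only genes with a mean of at least 1 CPM were taken as measured neighbours. The shares of all genes tested also cover genes below that level, so they are not a matched background. No excess of falling neighbours is read from them. Of the 20 nearest measured genes around L1CAM on chromosome X, 14 fell and 1 rose, beside 31.5% and 31.9% of all genes tested, and the median log2 fold change was -0.57; none reached L1CAM's 1.21. Its immediate neighbours were CYCSP45 (log2 -0.23 ± 0.13) and ARHGAP4 (-0.68 ± 0.04). The neighbours of ICAM1 on chromosome 19 had a median of -0.28, with 15 of 20 lower, beside 31.5% of all genes. Around MCAM on chromosome 11 the median was -0.11, and 1 of 20 genes lay above it. On chromosome 19, PVR, CEACAM19, BCL3, BCAM and PVRL2 lie next to each other among the measured genes. Within this run PVR changed by -0.17 ± 0.03, CEACAM19 by -0.61 ± 0.06, BCL3 by 0.36 ± 0.11, BCAM by 0.54 ± 0.05 and PVRL2 by 0.11 ± 0.03 on the log2 scale. None of the 20 neighbours of BCAM was above it, and their median was 0.08. For ALCAM on chromosome 3 the median of the neighbours was 0.23, and 17 of 20 lay above ALCAM's own value.

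**Figure D4:**
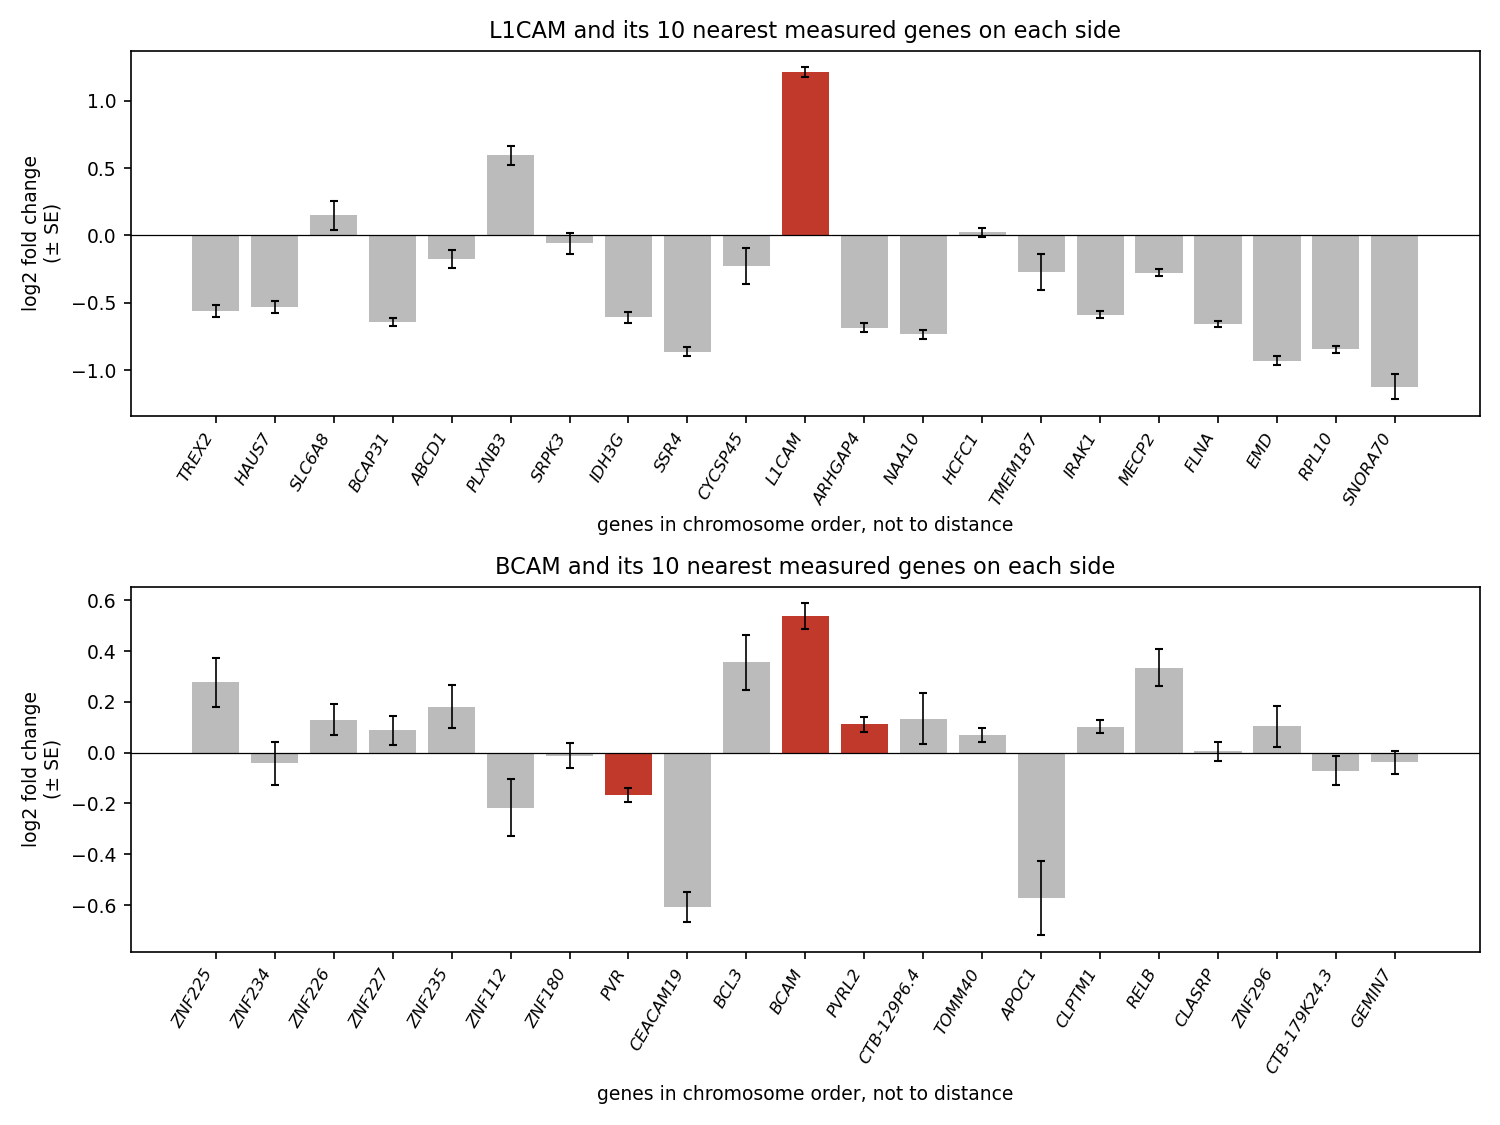
Log2 fold change of fast over parental cells (bars from 0, ± SE) for L1CAM, BCAM and the 10 nearest measured genes on each side, in chromosome order and not to distance; members are red. L1CAM stands at 1.21 among neighbours with a median of -0.57, and BCAM at 0.54 between PVR (-0.17) and PVRL2 (0.11).

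Among 55 other immunoglobulin-type adhesion molecules 39 were tested, of which 15 rose, 17 fell and 7 were not called, beside the 31.9% and 31.5% of all genes; their median log2 fold change was -0.20 and that of all genes 0.01. The nearest relatives of the members split. PVRL3 rose (64.3 against 51.7 CPM, log2 0.32 ± 0.04), as did PVRL1 (36.4 and 32.4 CPM, 0.17 ± 0.04). CADM4 rose 2.44-fold, from 2.05 to 4.99 CPM (log2 1.29 ± 0.10), and NRCAM, of the L1 family, rose from 6.20 to 8.61 CPM (0.44 ± 0.08). NCAM2 fell 3.89-fold, from 9.35 to 2.41 CPM (log2 -1.96 ± 0.09). All 3 of the other intercellular adhesion molecules called were lower: ICAM2 (log2 -0.56 ± 0.09), ICAM3 (-0.26 ± 0.06) and ICAM5 (-0.20 ± 0.06). ICAM3 and ICAM5 were not called in batch 2 (edgeR adjusted p = 0.225 and 0.0930), and the fast and parental libraries overlapped for ICAM5. ICAM4 and CADM2 were not called. The largest changes of the list were losses: the epithelial molecule MPZL2 went from 2.10 to 0.0379 CPM and its relative MPZL3 from 1.78 to 0.0644. CNTN5, a neural contactin, went from 10.4 to 0.530 CPM (log2 -4.30 ± 0.10) and DSCAM from 4.40 to 0.519 CPM (-3.08 ± 0.14). ESAM, the junction molecule of endothelium and platelets, rose 2.06-fold (197 against 95.8 CPM, log2 1.04 ± 0.03).

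Of 22 ligands and receptors of the members 15 were tested; 7 rose and 3 fell, beside 31.9% and 31.5% of all genes, and the median log2 fold change was 0.11. Some partner genes of ICAM1, L1CAM, PVR and BCAM had higher levels in the fast cells themselves. ITGB2, the beta chain of the leukocyte integrins that bind ICAM1, rose 3.90-fold (56.3 against 14.4 CPM, log2 1.97 ± 0.04). The alpha chains that complete those receptors, ITGAL and ITGAM, did not pass the filter, with 0 and 1 counts over the fast libraries and 10 and 35 over the parental libraries. CD96, a lymphocyte receptor of PVR, rose 4.12-fold (31.0 against 7.75 CPM, log2 2.04 ± 0.07). ITGB3, whose integrin binds L1CAM, rose 4.20-fold (16.0 against 3.77 CPM, log2 2.07 ± 0.07); its symbol has 2 rows in the table with 7705 and 4786 counts in all, so its reads may be shared. WNT5A, a ligand of MCAM, fell 3.74-fold (3.25 against 11.8 CPM, log2 -1.90 ± 0.16), a call lost with the 3 libraries of each group summed (adjusted p = 0.0526).

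Behind the membrane, 19 of 20 cytoplasmic partners were tested; 11 rose and 6 fell, beside 31.9% and 31.5% of all genes, with a median of 0.08 on the log2 scale. TIAM1, an activator of the GTPase Rac that acts downstream of nectin-type contacts, rose 2.34-fold (41.2 against 17.6 CPM, log2 1.23 ± 0.04). MLLT4, the gene of afadin, which ties nectins to actin, rose 1.77-fold (123 against 69.6 CPM, log2 0.82 ± 0.03). EPB41L1, a band 4.1 protein, rose 1.93-fold (22.3 against 11.5 CPM). CASK, a scaffold that binds the tails of nectin-like molecules, fell 2.09-fold (20.8 against 43.6 CPM, log2 -1.07 ± 0.04).

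All 10 genes of the shedding list, the proteases that cut L1CAM, ALCAM and related molecules and their inhibitors, were called, 5 in each direction, beside 63.4% of all genes (31.9% higher and 31.5% lower). ADAM8 rose 1.91-fold (142 against 74.9 CPM) and TIMP3, an inhibitor of ADAM proteases, 1.90-fold (211 against 111 CPM). MMP2 and MMP9 fell at low levels, MMP2 from 1.05 to 0.390 CPM and MMP9 from 1.66 to 0.912 CPM. Of 6 tested enzymes that make the glycans of these proteins 2 rose and 2 fell, a share near the 63.4% of all genes called. ST8SIA4, which builds the polysialic acid known from NCAM1, rose from 7.57 to 14.3 CPM, while NCAM1 itself had no counts. ST6GAL1 fell 3.32-fold (log2 -1.73 ± 0.10), CHST10, which makes the HNK-1 glycan, fell 1.67-fold, and B4GALT1 rose 1.16-fold.

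The NF-kB and interferon list was examined because ICAM1 and VCAM1 are known targets of these factors. Of its 16 tested genes 9 rose and 4 fell over both batches (31.9% and 31.5% of all genes), with a median log2 fold change of 0.29, and in 6 the change differed between batches, a difference called in 5.4% of all genes. TNFRSF1B, a TNF receptor, rose 6.25-fold (14.8 against 2.37 CPM, log2 2.64 ± 0.08). BIRC3, TNFAIP3 and NFKB2, themselves NF-kB targets, each rose 1.59-fold. BIRC3 changed by 0.87 in batch 1 and 0.48 in batch 2 on the log2 scale, and NFKB2 by 0.77 and 0.56. The following 4 genes were chosen after their values were seen, because the difference between their batches was called. NFKBIA, the gene of the inhibitor of NF-kB, changed by 0.74 in batch 1 and 0.10 in batch 2. RELB changed by 0.55 and 0.12, CXCL8 by 0.42 and -0.95, and RELA by -0.14 and -0.34. All 6 had a lower value in batch 2 than in batch 1, as ICAM1 had (0.39 and -0.05). RELA, unlike ICAM1, fell in both batches, and the ICAM1 difference was lost in 12 of 19 alternatives. Of the 1223 genes over the whole table whose change differed between batches, 827 were lower in batch 2. The 6 genes were picked out by this difference, so their likeness to ICAM1 is a description and not a test. Whether any of these factors bears on ICAM1 was not tested.

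**Figure D5:**
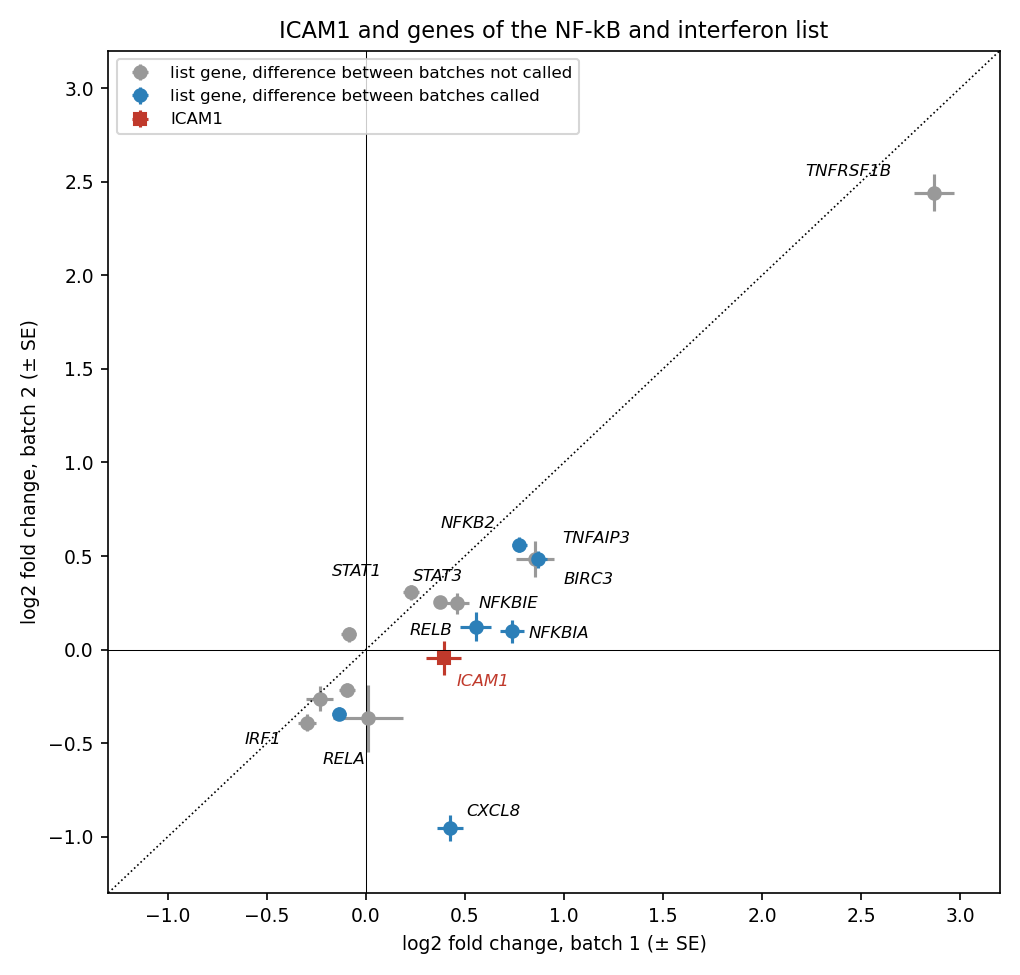
Log2 fold change of fast over parental cells in batch 1 (horizontal) and batch 2 (vertical), ± SE, for the 16 tested genes of the NF-kB and interferon list and ICAM1 (red square); the dotted line marks equal change. The 6 genes in blue were picked out by their called difference between batches, and they lie below the line, as ICAM1 does.

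Markers of other cells that carry these molecules were measured in the same libraries. Of 12 leukocyte markers 2 passed the filter, their summed level was 1.15 to 1.61 CPM in fast and 1.51 to 2.65 CPM in parental libraries, and CD3D and MS4A1 were at 0 in all 12. Of 10 fibroblast and pericyte markers 3 passed, with sums of 11.9 to 14.8 CPM in fast and 18.4 to 22.0 CPM in parental libraries and DCN and LUM at 0. The 11 endothelial markers found summed to 289 to 326 CPM in fast and 154 to 183 CPM in parental libraries, most of it ESAM (197 and 95.8 CPM) and ROBO4 (95.9 and 55.2 CPM), with ERG at 0 and CDH5 at 18 counts in each population. Other endothelial markers did not share a direction: KDR rose (10.8 against 8.60 CPM), whereas TIE1 fell (2.85 against 7.37 CPM). VWF, named after its values were seen, was called lower over both batches (0.0838 against 0.182 CPM, edgeR adjusted p = 0.0387). That call rested on 32 counts in fast and 72 in parental cells, and VWF was called in neither batch alone (edgeR adjusted p = 0.313 and 0.0620). The 10 neural and Schwann cell markers summed to 169 to 178 CPM in fast and 88.6 to 99.0 CPM in parental libraries, nearly all TUBB3 (170.2 and 88.4 CPM), with STMN2 at 0; the symbol TUBB3 has 2 rows with 101970 and 101920 counts, so a read can have been counted for both. Of the line's own markers, VIM was at 6912 and 5050 CPM and EPCAM at 11.2 and 11.2 CPM in fast and parental cells, and CDH1 had 8 and 3 counts. CD44 fell by 0.34 ± 0.02 and VIM rose by 0.45 ± 0.02 on the log2 scale, and PGR, the gene of the progesterone receptor, rose from 0.477 to 2.05 CPM (2.12 ± 0.16). The part of these levels in the changes of L1CAM, MCAM and BCAM was not tested.

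Over the 12 libraries, 3 genes followed L1CAM most closely among 11274 candidates by Pearson's correlation of log2 CPM, and all of them share its libraries and its difference between populations. They were ITGB4 (r = 0.998), the integrin beta chain of hemidesmosomes, AIM1 (r = 0.998) and SERPINB9 (r = 0.998), a granzyme B inhibitor. ITGB4 averaged 182 CPM in fast cells against 55.6 CPM, and SERPINB9 28.4 and 13.4 CPM. For BCAM the closest were GULP1 (r = 0.980), NPEPL1 (r = 0.979) and RAB22A (r = 0.978). LAMA5, the laminin chain that BCAM binds, was examined with the ligands and was chosen here after its values were seen. It rose 1.76-fold (331 against 188 CPM, log2 0.82 ± 0.03). LAMA4, the alpha chain of laminin-411, a ligand of MCAM, went the other way and was also chosen after its values were seen. It fell 1.68-fold (5.45 against 9.34 CPM, log2 -0.75 ± 0.08).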

How the data were processed

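RNA was measured in 12 MDA-MB-231 libraries. The authors deposited raw counts of reads per gene, not normalized. The submitters' processing notes name Trimmomatic 0.32, STAR 2.3.0e, featureCounts 1.4.4, hg19 and GRCh37; the strand setting and the treatment of reads with several matches are not given in the sources used here. All 12 columns were matched to samples by the labels.

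The adhesion molecules and all lists of genes were chosen with earlier results of these data known. Tests used edgeR 4.0.16 under R 4.3.3, with TMM normalization, the default low-count filter (minimum count 10, minimum total 15, by group), a robust quasi-likelihood fit and Benjamini-Hochberg adjustment over 22668 genes (threshold 0.05). Batch was an additive term for both batches together; a model with 4 group means gave each batch and their difference. SEs are the log2 fold change divided by the square root of F. The scripts were tested on simulated data. Gene order and exon lengths came from GENCODE by gene ID, since the counts use another build, and promoter sequences from RefSeq (GRCh38.p14). For each member with an entry the first start listed was taken, and other starts were not examined.

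Named are all members, their subfamily relatives, and of each list up to 4 called genes with the largest changes of the same sign in both batches; other names are said to be chosen after their values were seen, as ESAM and BSG were for the plot of levels per length. Alternatives were RLE factors, DESeq2 1.42.0, other filters, no batch term, the replicate block, single batches, summed libraries and each library left out; scaling by library totals and upper-quartile factors were added after seeing the data. Libraries with the same replicate number in the sample titles did not vary together (r from -0.106 to 0.0933). In batch 1 some column names carry other numbers than the titles, and pairing by the column numbers was not tested. Replicate pairs differed by more than counting error (index of dispersion 3.41 to 8.81), and all were kept. Intervals and floors cover counting error only.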

Additional observations from a re-analysis of the deposited data

Results flagged for a closer look

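The effect of the population differed between the batches for the following genes, by the contrast of batch 2 minus batch 1 in edgeR with Benjamini-Hochberg adjustment; 5.4% of all genes tested passed it. Among the members, ICAM1 differed by -0.44 ± 0.13 (SE, log2; 0.39 in batch 1 and -0.05 in batch 2), L1CAM by 0.21 ± 0.06 (1.11 and 1.32) and PVRL2 by -0.16 ± 0.05 (0.19 and 0.03).

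Among relatives and partners, ICAM3 differed by 0.33 (-0.43 in batch 1 and -0.10 in batch 2), NCAM2 by 0.57 (-2.26 and -1.69), CD96 by 0.42 (1.85 and 2.27) and WNT5A by -0.90 (-1.47 and -2.37). ADAM8 differed by 0.24 (0.82 and 1.06) and ST6GAL1 by 0.57 (-2.02 and -1.45). ICAM3 was not called in batch 2 (adjusted p = 0.225); the other 5 were called with the same sign in both batches.

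On the NF-kB list, NFKBIA differed by -0.64, RELB by -0.43, BIRC3 by -0.39, NFKB2 by -0.21, RELA by -0.21 and CXCL8 by -1.38. CXCL8 was higher in fast cells in batch 1 (0.42) and lower in batch 2 (-0.95). Of the endothelial and fibroblast markers, TIE1 differed by -0.80, ROBO4 by -0.17 and COL1A1 by 0.36.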

How the results depend on the processing

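No called value of a member changed direction; in batch 2, where neither was called, ICAM1 ran from -0.08 to 0.09 and PVRL2 from -0.00102 to 0.08 over the alternatives. L1CAM, BCAM and MCAM remained called higher over both batches and in each batch in every alternative run, with log2 fold changes over both batches of 1.16 to 1.25, 0.49 to 0.58 and 0.40 to 0.47. PVR remained called lower over both batches (-0.22 to -0.15) and in batch 2. The members called lower over both batches numbered 2, and 1 with the 3 libraries of each group summed; leaving out a library gave 1 to 2. In batch 1 the 2 members called lower became 0 to 2 when a library was left out. In batch 2 the 1 member called lower became 2 when genes under a mean of 1 CPM were left out, with only the libraries of that batch or with library totals alone. Of the difference between batches, the 1 member called higher became 0 to 1 and the 2 called lower became 0 to 1 when a library was left out. The 2 called lower became 1 with RLE factors, DESeq2, genes under a mean of 1 CPM left out or the replicate block, and 0 with no low-count filter, library totals alone or upper-quartile factors. With the replicate block, 4 members were called higher and 2 lower over both batches, and 13966 genes were called in place of 14374. The block used the replicate numbers of the sample titles, and libraries that share such a number did not vary together. Over the named genes and the list counts in all alternatives, 4957 results were rated the same, 139 lost a call, 17 gained one and 31 list counts moved. Rated the same were genes on the same side of the threshold, with a changed sign allowed where neither run was called. List counts near their main value were also rated the same. The counts of members and of all genes called are not in this tally. The median gene shifted by -0.03 to 0.00 (log2) between scalings. Depth limits VCAM1, CADM1 and NCAM1, which had at most 14 counts over a population.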
